A study of Mus musculus with 6 samples.

Results

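Genes of protein kinases and protein phosphatases were examined in the hippocampus of mice in 3 groups of 2 libraries each. The set was chosen by symbol alone: every listed gene whose symbol starts with Mapk, Map2k, Map3k, Map4k, Camk, Prkc, Prka, Cdk, Stk, Ptpr, Ptpn, Ppp or Dusp. It holds 36 of the 3733 genes in the deposited table. Of these, 11 begin with Ppp, 6 with Ptpn, 4 with Ptpr, 4 with Cdk, 3 with Map3k, 2 with Mapk, 2 with Stk, and 1 each with Map4k, Camk, Prkc and Prka. The table lists no gene whose symbol begins with Map2k or Dusp, and members of these families that fall outside the table are not analysed here. The groups are Control, PIA and PIA+IL-27. PIA stands for the postnatal immune activation named in the study's title, and the design text calls the same groups control, LPS and LPS+rIL-27. LPS is lipopolysaccharide, a component of bacterial walls that triggers innate immune responses. Interleukin-27 (IL-27) is secreted mainly by myeloid cells, and rIL-27 is its recombinant form. The libraries were made from total RNA of hippocampal tissue. The labels give no age, strain, sex, dose or interval for any group, and do not say whether a library is 1 animal or a pool, so the p-values measure only the spread between these samples.

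Protein kinases add phosphate to other proteins and phosphatases remove it, and together they carry signals from membrane receptors to synapses and to the nucleus. In mitogen-activated protein (MAP) kinase cascades a MAP kinase kinase kinase activates a MAP kinase kinase, which activates a MAP kinase such as ERK, JNK or p38. In hippocampal neurons, calcium entering at synapses activates calmodulin-dependent kinases, protein kinase C and the phosphatase calcineurin, all of which are known for their part in synaptic plasticity. In leukocytes and microglia, tyrosine phosphatases such as SHP-1 restrain receptor signalling.

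The table is a selection: in the authors' deposited table each gene has a fold change of 1 or more on the log2 scale, in either direction, together with a Q of 0.05 or less for some comparison. The 36 genes are thus there for having differed in these libraries. Listed genes held 2.14 to 5.61% of a library's transcripts in TPM, and whole libraries were estimated at 14514058 to 15770813 reads. Replicates were far apart: among all listed genes 68.8% differed by over 2-fold between the Control libraries, 31.4% between the PIA libraries and 31.0% between the PIA+IL-27 libraries. For the 4 Y-linked genes together, Control held 2.94 and 9.52 normalized reads, PIA held 541 and 594, and PIA+IL-27 held 1476 and 6.80. A contrast of PIA to Control and this difference cannot be told apart. Both comparisons with PIA+IL-27, whose libraries differed from each other in these genes, are not balanced for them either. The hippocampal label was checked on the 3 listed markers of dentate granule cells, whose sums were 705 and 1519 (Control), 745 and 141 (PIA), 210 and 1483 (PIA+IL-27) normalized reads. All 15 markers of the choroid plexus are listed, with sums of 1153 and 66830 (Control), 13535 and 1544 (PIA), 1767 and 1779 (PIA+IL-27). Without the most abundant of these, the sum was 8219 in Control 2 and 1075 to 2233 elsewhere. For the neocortex 8 markers are listed, and 6 of them, all but Rspo1 and Foxp2, peaked in PIA 2 and PIA+IL-27 1, above the other 4 libraries. Their sums were 11738 in PIA 2, 30355 in PIA+IL-27 1 and 2996 to 5454 elsewhere, and without Mef2c, which supplied most of the second, 6410, 9035 and 1301 to 2816. Medians of the set, and some genes, are therefore also given without both libraries, which leaves 1 library each of PIA and PIA+IL-27; this was chosen after the data were seen.

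Levels differed widely between the 36 genes. In TPM, which allows comparison between genes because it is scaled by transcript length, the mean over the 6 libraries was over 20 for 4 genes, 5 to 20 for 15, 1 to 5 for 10 and under 1 for 7. Ppp3ca, the catalytic alpha subunit of calcineurin, was the most abundant with a mean of 94.5 TPM (25.3 to 168 over the libraries). Next came Ptprz1, a receptor tyrosine phosphatase of astrocytes and oligodendrocyte precursors, with 69.9 TPM (17.0 to 118). Prkcb, a conventional protein kinase C activated by calcium and diacylglycerol, had 48.5 TPM (20.04 to 82.2), and the Cdk-like kinase gene Cdkl2 had 27.4 TPM (8.69 to 55.4). Ppp3ca was above Ptprz1, and Cdkl2 the lowest of the 4, in all 6 libraries. Prkcb was the third of the 4 except in PIA 2, where it was the first with 30.1 TPM. At the low end lay the leukocyte phosphatase Ptpn7 with 0.497 TPM (0.14 to 1.22) and Ppp1r42 with 0.235 TPM (0 to 0.58).

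Most of the set shared 1 order of libraries. In 23 of the 36 genes (63.9%) Control 2 and both PIA+IL-27 libraries lay above Control 1 and both PIA libraries, and in 3 genes (8.33%) they lay below. Over all listed genes the same orders held for 52.4% and 9.54%, so the share of the set lies near that of the table. The median gene of the set lay 0.58 below its own mean on the log2 scale in Control 1, 0.37 below in PIA 1 and 0.81 below in PIA 2. It lay 0.74 above in Control 2, 0.70 above in PIA+IL-27 1 and 0.58 above in PIA+IL-27 2. The Control libraries were thus on opposite sides: 22 genes of the set were over 2-fold higher in Control 2 than in Control 1 and 4 (Map3k8, Ptpn18, Ptpn6 and Ptpn7) were over 2-fold lower, against 59.0% and 12.9% of all listed genes. The 5 listed markers of neurons, of 15 on that list, followed the same order with sums of 7485 and 18783 (Control), 9659 and 5476 (PIA), 19018 and 20412 (PIA+IL-27) normalized reads. None of the 5 was at 0 throughout. The order was not limited to markers of neurons. The 4 listed astrocyte markers without Gfap had sums of 4378 and 13070 (Control), 6096 and 3277 (PIA), 9983 and 11121 (PIA+IL-27), while Gfap had the reverse order. The part of either cell type in the pattern was not tested. In whole tissue, fewer cells of a type and less RNA per cell cannot be told apart.

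**Figure D1:**
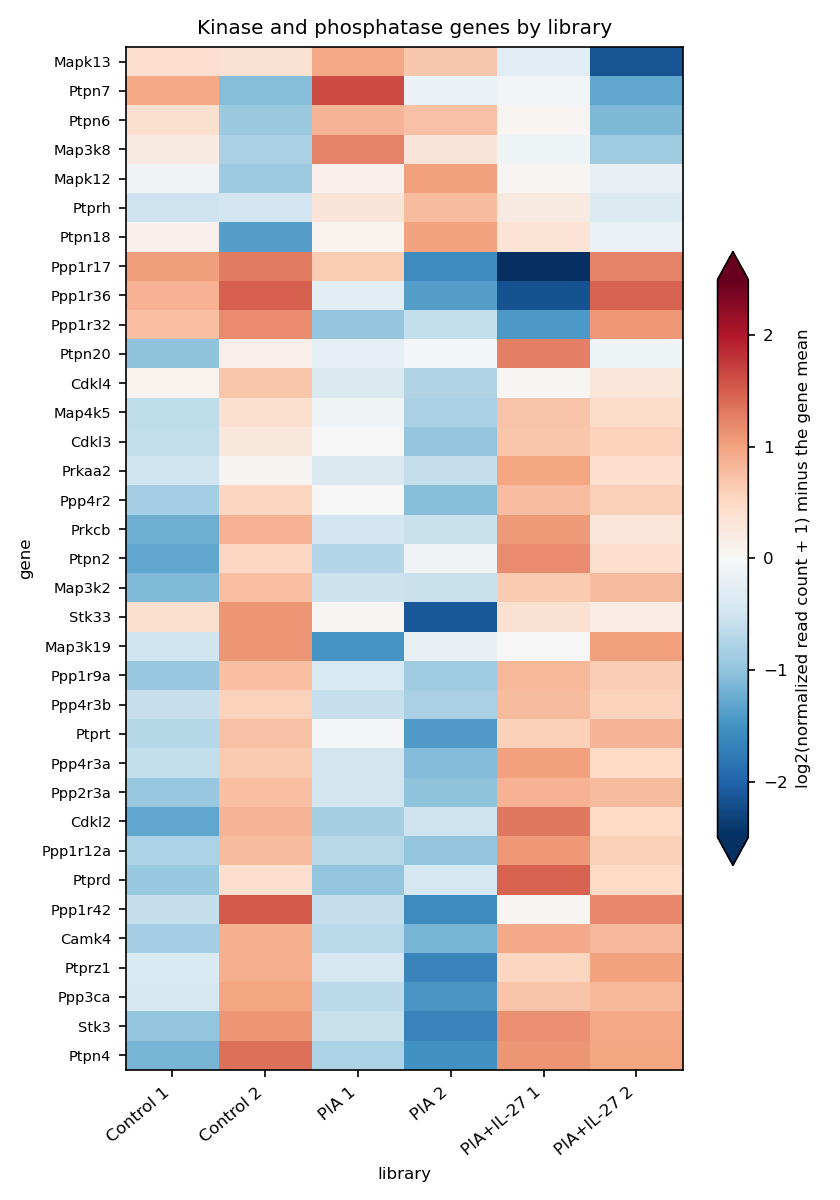
Heat map of 35 of the genes (vertical axis) in the 6 libraries (horizontal axis). Colour gives log2(normalized read count + 1) minus the gene's mean over the libraries; genes are ordered by the difference between PIA+IL-27 and PIA. Most genes are high in Control 2 and both PIA+IL-27 libraries and low in Control 1 and both PIA libraries.

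Genes of calcium-dependent signalling were among those with this order. Ppp3ca had 2331 and 6242 normalized reads under Control conditions, 1987 and 1136 under PIA, and 5136 and 5585 once IL-27 was added. Both PIA libraries lay below every Control and PIA+IL-27 library, and Control 2 was 2.68-fold above Control 1. The log2 fold change of PIA against Control was -1.46 ± 0.79 (SE, n = 2 per group, edgeR adjusted p = 0.617), and that of PIA+IL-27 against PIA was 1.78 ± 0.80 (SE, n = 2 per group, edgeR adjusted p = 0.257). Camk4, a mainly nuclear calmodulin-dependent kinase that phosphorylates CREB, had normalized counts that ran 853 and 2862 (Control), 969 and 691 (PIA), 2976 and 2714 (PIA+IL-27). Control 1 lay among the PIA libraries, so only the comparison with PIA+IL-27 was free of overlap (log2 fold change 1.78 ± 0.82). Prkcb had normalized read counts of 1222 and 5209 for Control, 2031 and 1929 for PIA, 5949 and 3487 for PIA+IL-27. Here Control 1 was the lowest library of all and PIA+IL-27 lay above PIA (log2 fold change 1.25 ± 0.79, and -0.03 with TMM factors).

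Cdkl2, Cdkl3 and Cdkl4 belong to the Cdk-like kinases, a family related to the cyclin-dependent kinases and to MAP kinases. Each had PIA+IL-27 counts above either PIA count, though with TMM factors, which are computed from the table's own genes, Cdkl3 (-0.16) and Cdkl4 (-0.48) turned negative on the log2 scale. Cdkl2 had 316 and 1411 normalized reads under Control conditions, 438 and 542 under PIA, and 1937 and 1107 once IL-27 was added. Its PIA libraries lay between the Control libraries (log2 fold change 1.63 ± 0.85 for PIA+IL-27 against PIA). Cdkl3 had normalized counts that ran 131 and 243 (Control), 203 and 103 (PIA), 326 and 299 (PIA+IL-27). The PIA libraries overlapped with Control, and both PIA+IL-27 libraries were above the other 4 (log2 fold change 1.03 ± 0.90 against PIA). Cdkl4 had normalized read counts of 120.5 and 185 for Control, 88.4 and 66.6 for PIA, 116 and 141 for PIA+IL-27. PIA was below Control without overlap (log2 fold change -0.98 ± 0.94), and PIA+IL-27 lay above PIA (log2 fold change 0.73 ± 0.94).

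The other serine/threonine kinases were 2 Stk genes and Prkaa2. Stk3, the MST2 kinase of the Hippo pathway, had 42.1 and 184 normalized reads under Control conditions, 57.7 and 26.2 under PIA, and 189 and 166 once IL-27 was added. PIA+IL-27 lay above PIA in all libraries (log2 fold change 2.09 ± 0.98), while Control 1 lay between the PIA libraries and Control 2 between the PIA+IL-27 libraries. Stk33 had normalized counts that ran 36.2 and 59.0 (Control), 27.9 and 5.46 (PIA), 35.5 and 31.1 (PIA+IL-27). PIA 1 and 2 were under Control 1 and 2, and PIA 2 was the lowest (log2 fold change -1.50 ± 1.07). Prkaa2, the alpha2 catalytic subunit of the AMP-activated kinase that senses cellular energy, had normalized read counts of 293 and 437 for Control, 324 and 276 for PIA, 822 and 555 for PIA+IL-27. Both PIA+IL-27 libraries were above the other 4 (log2 fold change 1.20 ± 0.87 against PIA, which was -0.07 with TMM factors, and log2 fold change 0.92 ± 0.86 against Control).

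Of the 4 receptor tyrosine phosphatases, the 3 of neural tissue had PIA+IL-27 above PIA without overlap, as did 57.1% of listed genes. Ptprz1 had 2828 and 6919 normalized reads under Control conditions, 2766 and 1176 under PIA, and 5335 and 7390 once IL-27 was added. Both PIA libraries were lower than both Control libraries, although PIA 1 lay only just under Control 1 (log2 fold change -1.31 ± 0.79), and PIA+IL-27 was above PIA (log2 fold change 1.69 ± 0.79). In TPM, PIA 1 (40.96) was level with Control 1 (40.87). Ptprd, a synaptic adhesion receptor, had normalized counts that ran 635 and 1624 (Control), 614 and 903 (PIA), 3383 and 1720 (PIA+IL-27). PIA+IL-27 1 held 1.97 times the count of PIA+IL-27 2, and both exceeded every Control and PIA library in normalized counts (log2 fold change 1.75 ± 0.83 against PIA and log2 fold change 1.18 ± 0.82 against Control, or 1.49 and 0.61 without PIA 2 and PIA+IL-27 1). In TPM, PIA+IL-27 2 (21.01) was level with Control 2 (21.02). Ptprt, a homophilic adhesion receptor, had normalized read counts of 638 and 1726 for Control, 1008 and 387 for PIA, 1566 and 1865 for PIA+IL-27. PIA 1 and 2 differed by 2.60-fold (log2 fold change 1.30 ± 0.83). Ptprh, best known from gastrointestinal epithelium, ran the other way at a low level with 21.5 and 21.9 normalized reads under Control conditions, 39.4 and 54.6 under PIA, and 36.5 and 24.3 once IL-27 was added. Its Control libraries were nearly equal and below both PIA libraries (log2 fold change 1.11 ± 1.06).

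**Figure D2:**
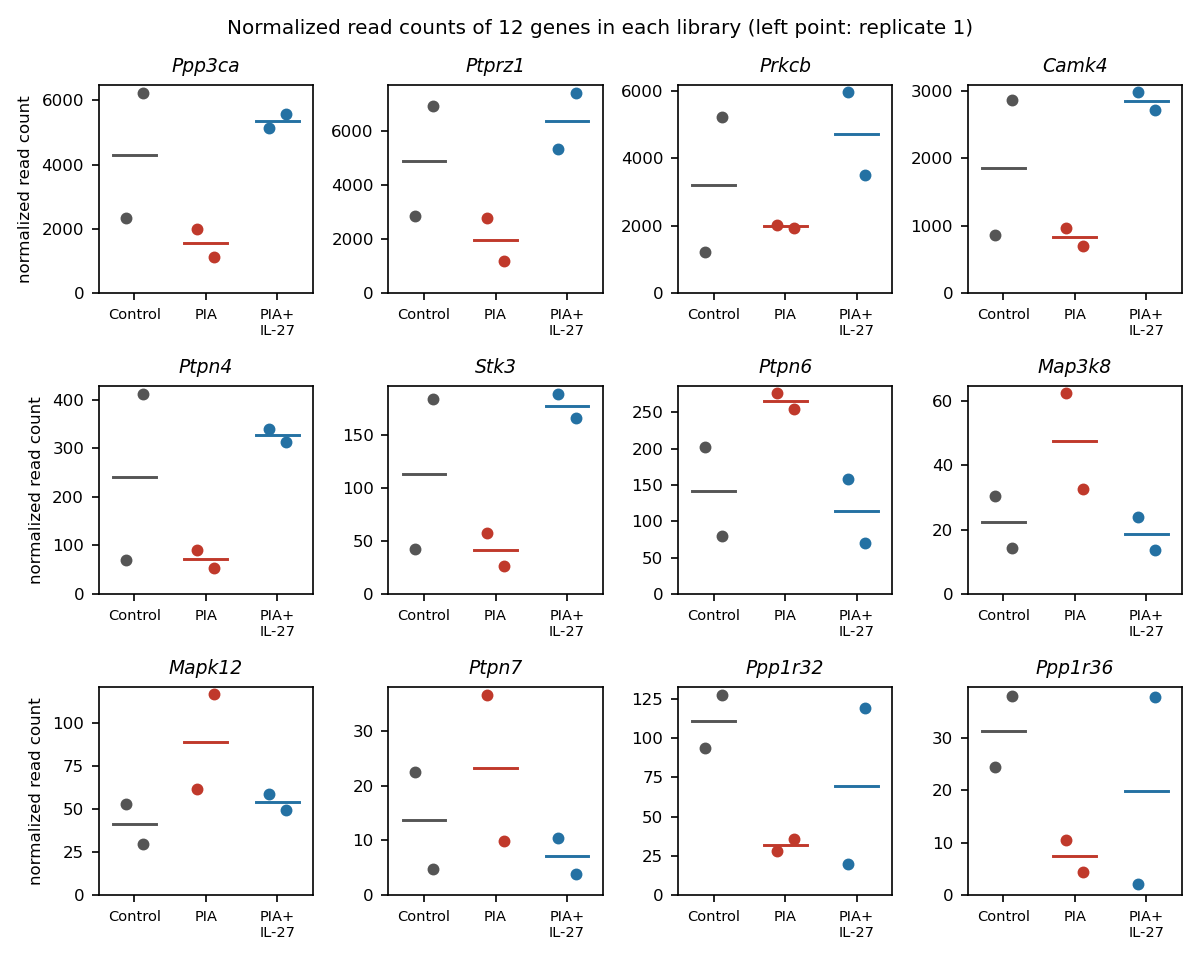
Normalized read counts (vertical axis, from 0) of 12 genes in Control, PIA and PIA+IL-27; each point is 1 library, replicate 1 left and replicate 2 right, and each line is the mean of 2. Ppp3ca and Camk4 are high in Control 2 and in both PIA+IL-27 libraries, Ptpn6 is highest in both PIA libraries, and Ppp1r32 is low in both PIA libraries and in PIA+IL-27 1.

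The non-receptor tyrosine phosphatases divided into neuronal or ubiquitous members and members of leukocytes. Ptpn4, a phosphatase with a PDZ domain that is found in neurons, had normalized counts that ran 69.5 and 411 (Control), 91.3 and 54.6 (PIA), 339.9 and 314 (PIA+IL-27). The Control libraries differed by 5.91-fold, and Control 1 lay between the PIA libraries. Its log2 fold change of PIA+IL-27 against PIA was 2.16 ± 0.93 (SE, n = 2 per group, edgeR adjusted p = 0.257), the smallest unadjusted p of the set (0.0205). Ptpn2, which dephosphorylates JAK kinases and STAT proteins, had normalized read counts of 65.6 and 232 for Control, 97.0 and 153 for PIA, 370.2 and 217 for PIA+IL-27. The Control libraries spanned both PIA libraries (log2 fold change 1.23 ± 0.91 for PIA+IL-27 against PIA, and -0.10 with TMM factors). Ptpn6, which encodes SHP-1 of leukocytes and microglia, had 203 and 80.0 normalized reads under Control conditions, 277 and 254 under PIA, and 158 and 69.9 once IL-27 was added. Both PIA libraries were above every other library (log2 fold change 0.91 ± 0.91 against Control, and log2 fold change -1.22 ± 0.92 for PIA+IL-27 against PIA). Ptpn7, a leukocyte phosphatase of MAP kinases, had normalized counts that ran 22.5 and 4.76 (Control), 36.5 and 9.82 (PIA), 10.4 and 3.88 (PIA+IL-27). Replicates differed by 4.73-fold in Control and 3.72-fold in PIA, and the groups overlapped in all 3 comparisons. Ptpn18 had normalized read counts of 28.4 and 9.52 for Control, 27.9 and 53.5 for PIA, 33.4 and 23.3 for PIA+IL-27. PIA 2 and PIA+IL-27 1 lay above the other 4 libraries. Without both, its log2 fold change was 0.55 in PIA against Control and -0.26 in PIA+IL-27 against PIA. Ptpn20 was low throughout, with 6.86 and 16.2 normalized reads under Control conditions, 12.5 and 14.2 under PIA, and 36.5 and 13.6 once IL-27 was added. Its highest value was in PIA+IL-27 1, and without both libraries its log2 fold change of PIA+IL-27 against Control was 0.24 in place of 1.11.

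Markers of microglia and of neutrophils and monocytes were set beside Ptpn6, Ptpn7 and Map3k8. The 7 listed microglial markers of 15 had sums of 2236 and 1196 (Control), 2598 and 3449 (PIA), 2234 and 1220 (PIA+IL-27) normalized reads. C1qa, C1qb and Itgam made up most of these sums. Their log2 fold changes were above 0 in PIA against Control and below 0 in PIA+IL-27 against PIA, while those of P2ry12, Trem2, Siglech and Gpr34 had the opposite signs. The medians of the 7 were -0.27 and 0.89. The 9 listed neutrophil and monocyte markers of 12 had sums of 605 and 65.7 (Control), 1930 and 212 (PIA), 208 and 86.4 (PIA+IL-27). No listed marker of either list was at 0 in all libraries. The part of either cell type in these values was not tested.

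The MAP kinase cascade was represented by 6 kinases that differed in direction. Map3k8 (Tpl2), which links Toll-like and TNF receptors to ERK in myeloid cells, had normalized counts that ran 30.4 and 14.3 (Control), 62.5 and 32.7 (PIA), 24.0 and 13.6 (PIA+IL-27). PIA 1 and 2 exceeded Control 1 and 2, with PIA 2 only just above Control 1 (log2 fold change 1.09 ± 1.07), and above both PIA+IL-27 libraries (log2 fold change -1.34 ± 1.08). Mapk12, the gamma form of p38, had normalized read counts of 52.9 and 29.5 for Control, 61.5 and 117 for PIA, 58.4 and 49.5 for PIA+IL-27. PIA 2 held the highest count (log2 fold change 1.11 ± 0.98 for PIA against Control, and 0.58 without PIA 2 and PIA+IL-27 1). Mapk13, the delta form of p38, was rare with 10.8 and 10.5 normalized reads under Control conditions, 16.3 and 13.1 under PIA, and 6.26 and 0.971 once IL-27 was added. PIA+IL-27 2 held a single read. The log2 fold change of PIA+IL-27 against PIA, the lowest of the set, was -2.00 ± 1.30 (SE, n = 2 per group, edgeR adjusted p = 0.302). In contrast, Map3k2 (MEKK2) had normalized counts that ran 159 and 575 (Control), 233 and 231 (PIA), 536 and 586 (PIA+IL-27). PIA 1 and 2 were nearly equal, and both PIA+IL-27 libraries were over 2-fold above them (log2 fold change 1.27 ± 0.87, 0.03 with TMM factors and -0.60 with GC and length trends removed). Map4k5, a kinase of the germinal centre kinase group, had normalized read counts of 338 and 694 for Control, 499 and 299 for PIA, 862 and 722 for PIA+IL-27. Both PIA+IL-27 libraries exceeded the other 4 in normalized counts (log2 fold change 0.99 ± 0.86 against PIA, and -0.22 with TMM factors). In TPM, PIA+IL-27 2 (19.17) was just under Control 2 (19.37). Map3k19 had 21.5 and 67.6 normalized reads under Control conditions, 10.6 and 27.3 under PIA, and 31.3 and 64.1 once IL-27 was added. PIA+IL-27 lay above PIA and overlapped with Control (log2 fold change 1.33 ± 1.05).

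Regulatory subunits of serine/threonine phosphatases made up 10 of the 36 genes. Such subunits can direct the catalytic subunits to their substrates, while Ppp1r17 among them is known as an inhibitor. Ppp1r9a, neurabin, which brings protein phosphatase 1 to actin in dendritic spines, had normalized counts that ran 409 and 1324 (Control), 608 and 424 (PIA), 1402 and 1210 (PIA+IL-27). Ppp1r12a, the myosin-targeting subunit MYPT1, had normalized read counts of 190.0 and 572 for Control, 204 and 169 for PIA, 701 and 503 for PIA+IL-27. Both had PIA+IL-27 above PIA (log2 fold change 1.34 ± 0.84 and log2 fold change 1.69 ± 0.88) and a Control 2 over 3-fold above Control 1. Ppp2r3a, a calcium-binding subunit of protein phosphatase 2A, had 208 and 674 normalized reads under Control conditions, 292 and 199.7 under PIA, and 733 and 698 once IL-27 was added. The 3 subunits of protein phosphatase 4 had the same order of groups. Ppp4r2 had normalized counts that ran 326 and 863 (Control), 599 and 284 (PIA), 1006 and 895 (PIA+IL-27). Ppp4r3a had normalized read counts of 164 and 398 for Control, 183 and 119 for PIA, 513 and 355 for PIA+IL-27. Its paralog Ppp4r3b had 211 and 469 normalized reads under Control conditions, 210.4 and 179 under PIA, and 547 and 472 once IL-27 was added. PIA+IL-27 exceeded PIA in each (log2 fold change 1.11 ± 0.85, log2 fold change 1.52 ± 0.89 and log2 fold change 1.38 ± 0.88, in that order), and with TMM factors Ppp4r2 was -0.08. The deposited counts of Ppp4r3b and Ppp1r9a had a decimal part (any value not exactly whole) in all 6 libraries, those of Stk3 in 3 and that of Cdkl2 in 1; these are estimated counts, and how they were estimated is not given in the sources used here.

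A further 4 genes named as subunits of protein phosphatase 1 were low in PIA 2 and, except for Ppp1r42, lowest or near lowest in PIA+IL-27 1. Ppp1r32 had normalized counts that ran 94.0 and 128 (Control), 27.9 and 36.0 (PIA), 19.8 and 119 (PIA+IL-27). Both PIA libraries and PIA+IL-27 1 were low, and PIA+IL-27 2 stood at the Control level. The log2 fold change of PIA against Control was -1.79 ± 0.99 (SE, n = 2 per group, edgeR adjusted p = 0.617). Ppp1r36 had normalized read counts of 24.5 and 38.1 for Control, 10.6 and 4.36 for PIA, 2.09 and 37.9 for PIA+IL-27. Its log2 fold change of PIA against Control, the lowest of the set, was -2.04 ± 1.17 (SE, n = 2 per group, edgeR adjusted p = 0.617), and the PIA+IL-27 libraries differed by 18.2-fold. Ppp1r17, a phosphatase inhibitor known from cerebellar Purkinje cells, had 11.8 and 14.3 normalized reads under Control conditions, 8.65 and 1.09 under PIA, and 0 and 13.6 once IL-27 was added. Its 0 in PIA+IL-27 1 allows up to 3.13 normalized read counts (3 reads, counting error only). Ppp1r42 had normalized counts that ran 0.979 and 7.62 (Control), 0.961 and 0 (PIA), 2.09 and 5.83 (PIA+IL-27). It did not pass the filter on low counts and was not tested; its 0 in PIA 2 allows up to 3.27 normalized read counts. Of all 36 genes, 2 (Ppp1r17 and Ppp1r36) had their lowest counts in PIA 2 and PIA+IL-27 1, against 6.35% of listed genes, and 1 (Ptpn18) was higher in both, against 6.86%. The 10 listed markers of ependyma, the ciliated lining of the ventricles, had sums of 817 and 1276 (Control), 353 and 293 (PIA), 216 and 1308 (PIA+IL-27) normalized reads, so the sums of both PIA libraries and PIA+IL-27 1 were low as for Ppp1r32. Of the 10, 8 were lower in PIA than in Control without overlap, as were 16.5% of listed genes. No listed marker was at 0 in all libraries. Their part in these values was not tested.

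Immune activation was examined in PIA against Control. PIA counts were all under the Control counts in 9 genes (25%, against 16.5% of listed genes): Ppp3ca, Ptprz1, Ppp4r3b, Cdkl4, Stk33, Ppp1r17, Ppp1r32, Ppp1r36 and Ppp1r42. For Ppp1r42 (0.961 in PIA 1, 0.979 in Control 1) and Ppp4r3b (210.4 and 210.6) the groups were all but tied. These gaps were no larger than that between the library factors, 1.04 for PIA 1 and 1.02 for Control 1. Ptprz1 was close as well (2766 in PIA 1, 2828 in Control 1), and in TPM its PIA 1 lay just above its Control 1. PIA counts were all over the Control counts in 5 (13.9%, against 17.2%): Ptpn6, Map3k8, Mapk12, Mapk13 and Ptprh. No gene of the 35 tested passed an adjusted p of 0.05 in edgeR, against 0.218% of all genes tested, and 0 had an unadjusted p under 0.05 in either direction (3.05% of all genes tested did so as higher and 3.23% as lower). DESeq2 called 0 with 3 at an unadjusted p under 0.05, and limma called 0 with 1. The smallest adjusted p was 0.617 (edgeR). Of the 7 genes that passed among all tested, 4 were the Y-linked genes. Fold changes were below 0 for 27 genes and above 0 for 8, against 72.2% and 27.8% of all genes tested, and with TMM factors the split was 18 to 17. The median log2 fold change was -0.76 in the set and -0.68 over all genes tested; without Control 2 the median of the set was 0.13. In the authors' deposited table, the genes listed as lower numbered 14 and those listed as higher 4 for this comparison, against 34.4% and 18.0% of the table.

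Addition of IL-27 was examined in PIA+IL-27 against PIA. Both PIA+IL-27 libraries lay above both PIA libraries in 25 genes (69.4%, against 57.1% of listed genes) and below in 5 (13.9%, against 16.5%): Ptpn6, Map3k8, Mapk12, Mapk13 and Ptprh. In TPM, PIA+IL-27 1 lay above PIA 1 for Mapk12 (4.63 and 4.13) and only just under it for Ptprh (1.06 and 1.07). Again 0 of 35 genes passed in edgeR, against 0.435% of all genes tested, with 0 called by DESeq2 and by limma. An unadjusted p under 0.05 was reached by 7 genes in edgeR, all higher (20%, against 14.4% of all genes tested), among them Ptpn4, Ppp3ca, Camk4, Stk3, Ptprz1 and Ptprd. None reached it as lower (4.35% of all genes tested did). With DESeq2 12 genes and with limma 8 or 9 genes reached it, depending on the value added to TPM. The smallest adjusted p was 0.257 (edgeR). The median log2 fold change was 1.25 in the set and 1.17 over all genes tested. Fold changes were above 0 for 28 genes and below 0 for 7 (74.8% and 25.2% of all genes tested), and with TMM factors the split was 17 to 18, with 11 genes of the set changing sign. TMM moved the median of all genes by -1.22 here, by 0.68 for PIA against Control and by -0.56 for PIA+IL-27 against Control. Relative to the median of all genes, Ptpn4 (0.99) and Stk3 (0.92) were among the highest on the log2 scale and Mapk13 (-3.17), Ptpn7 (-2.86), Map3k8 (-2.51) and Ptpn6 (-2.39) lowest. With TMM factors, Mapk13 was -3.28, Ptpn7 -2.87, Map3k8 -2.56 and Ptpn6 -2.52, all with adjusted p of 0.27 or more (edgeR). In the authors' deposited table, the genes listed as higher numbered 25 and those listed as lower 4, against 61.4% and 18.2% of the table. Without PIA 2 and PIA+IL-27 1 together, the median of the set was 0.96 and 0 genes passed; the medians of PIA against Control and of PIA+IL-27 against Control were then -0.62 and 0.38. This comparison shares the PIA libraries with that of PIA against Control, so opposite signs in the 2 are not independent.

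The third comparison set PIA+IL-27 against Control. Both PIA+IL-27 libraries lay above both Control libraries in 9 genes (25%, against 23.0% of listed genes), among them Cdkl3, Map4k5, Ppp2r3a, Ppp4r2, Ppp4r3b, Prkaa2, Ptprd and Ptprh. They lay below in 2 (5.56%, against 7.5%), Mapk13 and Stk33. Several of these gaps were small and were lost in TPM. There, Control 2 lay above PIA+IL-27 2 for Ppp4r3b (9.6 and 7.85), Ppp2r3a (14.53 and 13.94) and Ppp4r2 (27.33 and 27.08). The same held for Map4k5 (19.37 and 19.17) and Ptprd (21.02 and 21.01). For Stk33, PIA+IL-27 1 (2.3 TPM) lay above Control 1 (2.26). Cdkl3, Prkaa2, Ptprh and Mapk13 stayed apart in TPM too. No gene of 35 passed in edgeR (0.311% of all genes tested did), none had an unadjusted p under 0.05 (1.65% of all genes tested did as higher and 1.21% as lower), and DESeq2 and limma called 0, with 0 at an unadjusted p under 0.05. The smallest adjusted p was 0.835 (edgeR). Of the 10 genes that passed among all tested, 4 were the Y-linked genes and 3 were markers of the choroid plexus. The median log2 fold change was 0.58 in the set and 0.55 over all genes tested, with 26 genes above 0 and 9 below (73.3% and 26.7% of all genes tested). With TMM the split was 18 to 17. The median was 1.25 without Control 2 and 0.09 without Control 1. In the authors' deposited table Ptprd and Ptpn20 were listed as higher and Mapk13 as lower for this comparison, against 13.3% and 8.57% of the table.

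**Figure D3:**
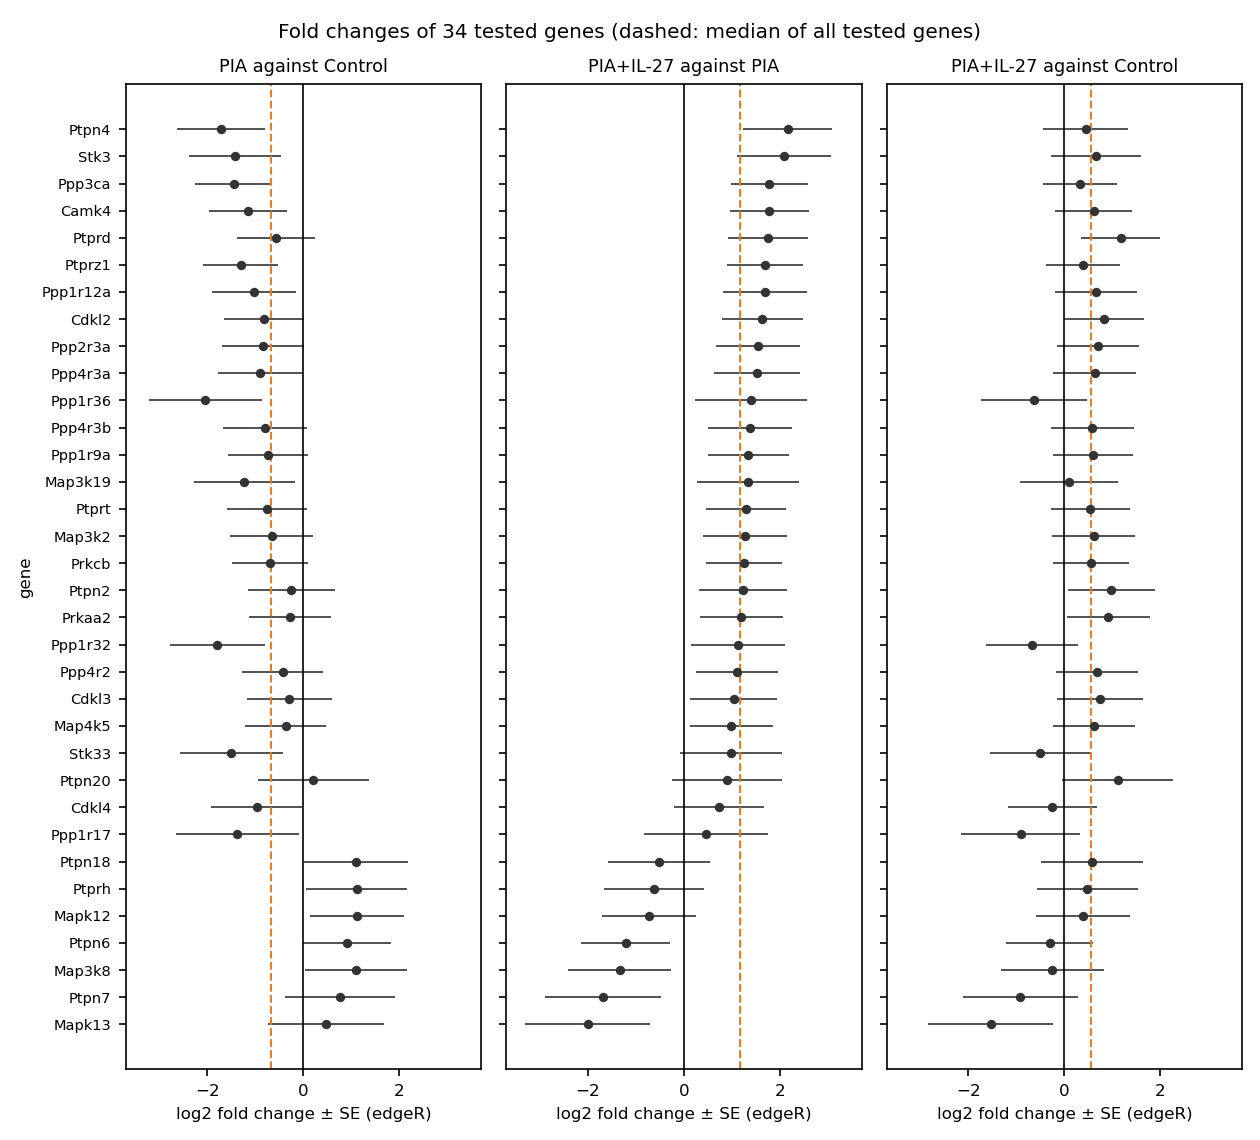
Log2 fold change with its standard error (horizontal axis, edgeR) of 34 tested genes (vertical axis) in the 3 comparisons; the dashed line is the median of all 3216 tested genes. Most genes sit near the dashed line, at -0.68, 1.17 and 0.55, while Mapk13, Ptpn7, Map3k8 and Ptpn6 lie to its left when IL-27 was added.

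Other genes of the same pathways were counted from lists of known components. Of 43 upstream genes of the MAP kinase cascade 10 are listed, and 0 passed in any comparison in either direction; in 9 of the 10 the PIA+IL-27 libraries lay above PIA without overlap (57.1% of listed genes were), among them Braf. Braf, a kinase that activates MAP kinase kinases, had normalized read counts of 216 and 867 for Control, 302 and 355 for PIA, 942 and 841 for PIA+IL-27. Of 46 targets and feedback genes 8 are listed and 0 passed; 4 lay above and 3 (Ier3, Atf3 and Zfp36, immediate-early genes) below, without overlap, when PIA+IL-27 was set against PIA (57.1% and 16.5% of listed genes did). Ier3 had 66.6 and 38.1 normalized reads under Control conditions, 129.7 and 122 under PIA, and 64.6 and 27.2 once IL-27 was added. Of 49 cAMP genes around protein kinase A 10 are listed, of 36 calcium and calcineurin genes 9, of 33 PI3 kinase, Akt and mTOR genes 9, and of 49 cyclin and division genes 8. None of these lists had a gene that passed in any of the 3 comparisons (edgeR), and their median log2 fold changes of PIA+IL-27 against PIA were 1.41, 1.23, 1.46 and 1.41, beside 1.17 over all genes tested. The 8 listed of 35 genes of other kinases and their partners in innate immune signalling had a median of -1.62 with 0 that passed. Of the 8, 6 lay below without overlap, as 16.5% of listed genes did, and 2 above. Beside them, the 7 tested markers of neutrophils and monocytes had a median of -3.32 in this comparison, all 7 below 0 (25.2% of all genes tested were). Of the 9 listed markers, 2 lay below without overlap. Their sum was 1930 in PIA 1, while that of PIA 2 (212) was near that of PIA+IL-27 1 (208). The part of these markers in the values was not tested. Ikbke, which activates interferon regulatory factors, had normalized counts that ran 101 and 25.7 (Control), 209 and 127 (PIA), 60.5 and 20.4 (PIA+IL-27). The 2 genes that lay above were Jak2 and Tab3, with log2 fold changes of 1.50 and 1.91.

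The base composition of the transcripts went with these differences. The 25 genes with both PIA+IL-27 libraries above both PIA libraries had a median GC content of 43.8% (38.4 to 50.5%) and a median transcript length of 4758 bases in their longest coding transcript. The 5 genes below had a median of 54.9% GC (45.3 to 55.1%) and 2569 bases. Map3k8, at 45.3% GC, was the lowest of these 5. Across the 35 tested genes, which share the 6 libraries, Spearman's rho between GC content and the log2 fold change of PIA+IL-27 against PIA was -0.48, beside -0.64 over 3081 tested genes. Between the Control libraries, which had the same treatment, GC content and the log2 ratio of Control 2 to Control 1 had a rho of -0.58 over the 36 genes, beside -0.52 over 3545 listed genes. Trends with GC content and length were fitted to each library's whole deviation from the gene means. Removing them also takes out the library's overall level, which brings the median near 0 by construction. TMM factors, which use no GC content, gave a median of -0.03 in the set for PIA+IL-27 against PIA, with 11 sign changes. With GC and length trends removed per library, this median was 0.14 in the set and 0.08 over all genes tested, and 12 of the 35 genes changed sign. Those that turned negative were Map3k2 (-0.60), Ptpn20 (-0.57), Prkaa2 (-0.54), Ppp4r2 (-0.39), Ppp4r3b (-0.28), Ptpn2 (-0.28), Cdkl4 (-0.24), Ppp2r3a (-0.055) and Map4k5 (-0.042), and those that turned positive were Ptpn18 (0.99), Mapk12 (0.56) and Ptprh (0.16). Among genes that kept their sign, log2 fold changes of PIA+IL-27 against PIA were -2.10 for Map3k8, -0.16 for Ptpn6, 1.43 for Camk4, 1.43 for Prkcb, 0.76 for Ppp3ca and 0.21 for Ptpn4, with a smallest adjusted p of 0.588 in the set (edgeR).

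**Figure D4:**
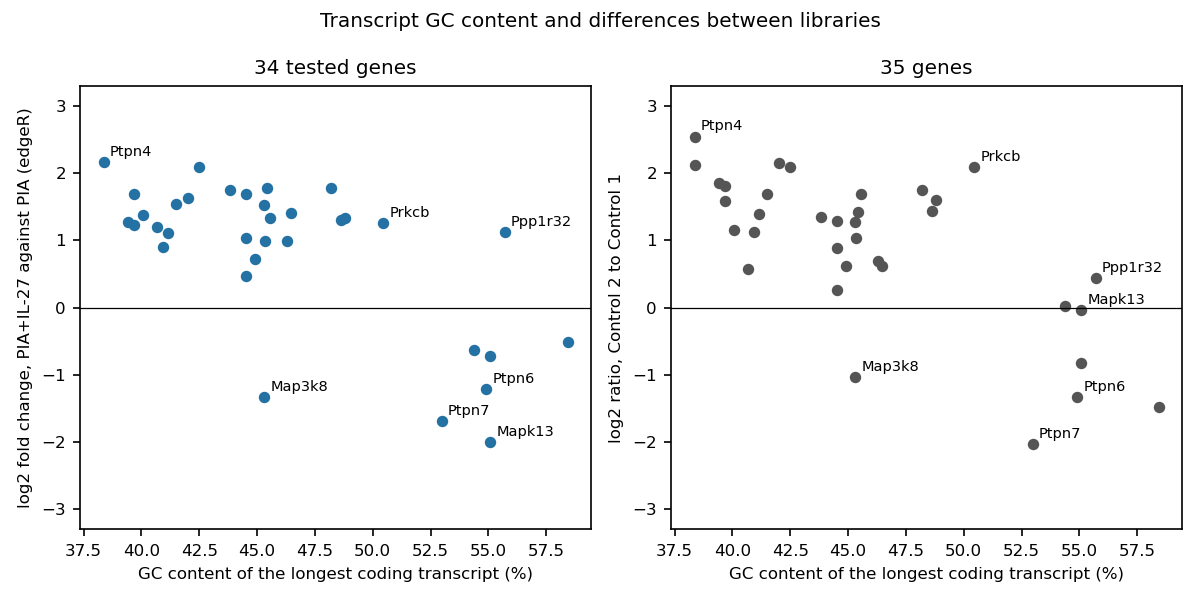
GC content of the longest coding transcript (horizontal axis, %) against the log2 fold change of PIA+IL-27 against PIA (left, 34 tested genes) and the log2 ratio of Control 2 to Control 1 (right, 35 genes); each point is a gene. Genes under 50% GC are above 0 in both plots except Map3k8, and Ptpn6 and Ptpn7 are below 0 in both.

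Promoter windows were available for 23 of the 36 genes in the RefSeq table (GRCm38.p6), 28 windows in all. In 6 genes the only window ends where the gene's RefSeq span begins; other windows were not printed, since they can lie before a start inside the gene. From these 6, the 250 bases before the start are shown for the 2 most abundant genes with PIA+IL-27 above PIA without overlap (Map4k5 and Ptprt) and the 2 below (Ptpn6 and Ptprh), so that the 2 directions can be set side by side; they were chosen after values were seen. Capitals mark matches on either strand to GGGCGG (a GC box), TGACG (a half-site of the cAMP response element), TGANTCA (AP-1), TTCNNNGAA (a STAT-type GAS site) and GAGGAAGT (PU.1).
Map4k5, chr12:69893164-69893413 (minus strand): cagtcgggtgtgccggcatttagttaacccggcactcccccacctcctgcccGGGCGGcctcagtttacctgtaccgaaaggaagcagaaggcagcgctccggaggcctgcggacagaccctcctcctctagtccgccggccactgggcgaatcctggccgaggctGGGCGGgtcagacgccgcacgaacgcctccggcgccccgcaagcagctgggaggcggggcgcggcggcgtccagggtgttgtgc
Ptprt, chr2:162661148-162661397 (minus strand): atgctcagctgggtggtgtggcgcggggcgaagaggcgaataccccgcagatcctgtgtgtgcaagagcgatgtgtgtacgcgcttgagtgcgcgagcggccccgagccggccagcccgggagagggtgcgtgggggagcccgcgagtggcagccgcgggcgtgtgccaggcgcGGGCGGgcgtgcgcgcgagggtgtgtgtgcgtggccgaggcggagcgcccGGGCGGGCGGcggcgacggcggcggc
Ptpn6, chr6:124738710-124738959 (minus strand): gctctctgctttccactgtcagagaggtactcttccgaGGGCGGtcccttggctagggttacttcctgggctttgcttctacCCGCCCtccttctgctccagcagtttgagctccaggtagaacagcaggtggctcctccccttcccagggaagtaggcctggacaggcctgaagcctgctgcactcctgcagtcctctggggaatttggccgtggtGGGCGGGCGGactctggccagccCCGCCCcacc
Ptprh, chr7:4604042-4604291 (minus strand): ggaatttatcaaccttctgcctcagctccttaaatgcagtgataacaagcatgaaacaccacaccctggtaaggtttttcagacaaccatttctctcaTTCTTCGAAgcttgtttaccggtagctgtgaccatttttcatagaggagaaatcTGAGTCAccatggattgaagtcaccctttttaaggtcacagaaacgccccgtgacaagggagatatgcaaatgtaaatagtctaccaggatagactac
The Map4k5 and Ptprt windows are 70.4% and 76.4% GC with 26 and 39 CpG dinucleotides, that of Ptpn6 is 63.2% GC with 7, and that of Ptprh 42.4% with 4. Map4k5 holds 2 GC boxes, Ptprt 3 and Ptpn6 5, and in each of the last-named pair 2 of the boxes overlap. Ptprh holds 1 AP-1 and 1 GAS match, and no other of the 28 windows holds either; 6.75% and 7.02% of all 32851 windows do. A GC box was found in 22 of the 28 windows and in 32.7% of all windows, and TGACG in 8 of 28 and 17.8%. GAGGAAGT was found in 1 of 28, that of Ppp4r3b (2.44% of all windows). The median GC content was 64.8% over the 28 windows and 52.4% over all windows. A match describes these letters only.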

How the data were processed

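Total RNA of mouse hippocampus was sequenced in 6 libraries, 2 per group, grouped by the titles in the labels; columns were joined through the library names. Expected counts were deposited for each gene and were rounded here. A normalized read count, a depth-scaled signal, was also deposited by the authors; 100% of its values equal the rounded-up count over a library factor of 0.917 to 1.05, within 1e-06. TPM and FPKM were deposited too, scaled to whole libraries as their sums show. For each comparison the authors deposited a log2 fold change and a Q value, that is an adjusted p-value. Which aligner, counter, build, strand setting and test they used is not given in the sources used here. Library depth was estimated from counts, FPKM and transcript lengths of 87 genes with 1 coding transcript.

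The main test was the quasi-likelihood test of edgeR 4.0.16 under R 4.3.3, with 1 fit over the 6 libraries, the factors above, and filterByExpr with a minimum count of 10, leaving 3216 of 3733 genes; p-values were adjusted by Benjamini-Hochberg over these at 0.05. The coefficient of variation was 0.597. Named genes were any that passed, the 8 higher and 8 lower members with the smallest p per comparison, the 2 most abundant per role, and a fixed list of well-known family members where the table holds them; the remaining members were added after their values were seen. Some genes are counted but not reported here by name, and figures leave them out. Transcript length and GC content came from the longest coding transcript of GENCODE vM21, for all 36 genes and 95.0% of the table. Gene identifiers of all 36 matched RefSeq symbols. Alternatives were factors by TMM or by median of ratios, no low-count filter, a replicate block, only the compared libraries, each library left out, DESeq2 1.42.0, limma 3.58.1 on log2 TPM with 1 or 0.1 added, GC and length trends removed (loess, span 0.5), and, after the data were seen, PIA 2 and PIA+IL-27 1 as a term or left out. The set and all gene lists were chosen with earlier results of these data known.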

Additional observations from a re-analysis of the deposited data

How the results depend on the processing

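In each of the 3 comparisons, 0 members passed an adjusted p of 0.05 under every alternative run. The median log2 fold change of the set in PIA against Control was -0.0225 with TMM factors, -0.0246 with median-of-ratios factors and -0.00976 with GC and length trends removed; leaving out 1 library gave -1.31 to 0.13, the highest without Control 2. In PIA+IL-27 against PIA the median was -0.0336 with TMM, 0.0202 with median-of-ratios and 0.14 with GC and length trends removed, and 1.10 to 1.50 with 1 library left out. In PIA+IL-27 against Control it was 0.0860 to 1.25 with 1 library left out. TMM and median-of-ratios factors centre the listed genes on 0 by construction. Removing the GC and length trends also takes out each library's overall level, so it brings the medians near 0 by construction as well. For the other alternatives the cause was not tested. Deviations of same-numbered libraries from their group means correlated across genes at 0.147, 0.0602 and -0.26 between the groups. With 1 value per pair of groups, this cannot decide whether the replicate numbers pair the samples. With the replicate block the medians were -0.67, 1.26 and 0.64 with 0 members passing, and 3, 4 and 3 of all genes passed in place of 7, 14 and 10. With the numbers crossed between PIA and PIA+IL-27 (a term for PIA 2 and PIA+IL-27 1), 0 members and 2 of all genes passed in PIA+IL-27 against PIA.

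For the 16, 15 and 16 genes of the set with the smallest p as higher or lower, 265 of 272, 251 of 255 and 258 of 272 values under the alternatives kept their sign and their side of the threshold in the 3 comparisons, in the order used above. Sign changed with GC and length trends removed for Mapk13 in PIA against Control (-0.12), for Mapk12 (0.56), Ptpn18 (0.99) and Ptprh (0.16) in PIA+IL-27 against PIA, and for Ppp2r3a (-0.0176), Prkaa2 (-0.20) and Ptpn6 (0.13) in PIA+IL-27 against Control. Ptpn20 in PIA against Control was -0.0321 with limma on log2(TPM + 1) and -0.18 with the term. In PIA+IL-27 against Control, Stk33 was 0.0676 with the term, and without PIA 2 and PIA+IL-27 1 Ppp1r17 was 0.0615, Ppp1r32 0.11 and Ppp1r36 0.27. With 1 library left out, PIA against Control ranged from -0.28 to 0.95 for Ptpn20, -2.49 to 0.0697 for Ptpn4, -2.13 to 0.0135 for Stk3 and -0.47 to 2.26 for Ptpn7. Ptpn18 ranged from -0.91 to 0.0234 in PIA+IL-27 against PIA. PIA+IL-27 against Control ranged from -1.01 to 0.51 for Ptpn6, -1.78 to 0.57 for Ptpn7, -0.53 to 0.0904 for Cdkl4, -6.71 to 0.0615 for Ppp1r17, -2.48 to 0.11 for Ppp1r32 and -3.83 to 0.27 for Ppp1r36; the lowest value of Ppp1r17 is against a library at 0 and is no bound. A group reduced to 1 library is assumed to vary like the others. Genes with few reads, such as Mapk13, Ppp1r17 and Ppp1r42, are limited by depth.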
